A study of Mus musculus with 6 samples.

Results

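Skin that had received IL-13 from a subcutaneous pump was compared with skin that had received PBS from the same kind of pump, gene by gene. Each side of the comparison was 1 array, the sample labelled IL-13 local skin and the sample labelled PBS local skin, which are 2 of the 6 arrays in the series. Of 12393 genes that a probe set names alone, 7562 had a signal at or above the median of all values (165 units) on at least 1 of these arrays and were described. A difference is given in log2(signal + 27.4), where a value of 1 is 2-fold, and it understates the change of dim genes.

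All mice were C57BL/6 and carried a pump under the skin for 7 days. The pump gave off 1 agent, either TSLP, TGF-beta, IL-13 or the control PBS, and total RNA of the skin at its outlet went onto an Affymetrix array. The outlet pieces gave 1 array each for PBS, IL-13 and TSLP and 2 for TGF-beta (labelled mouse 1 and mouse 2), and 1 further array came from abdominal skin of a PBS mouse far from the outlet (PBS distal). The labels do not say whether both PBS pieces came from the same mouse, and name no dose, sex or age.

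IL-13 is a signal protein made in allergic and anti-parasite responses by T helper and innate lymphoid cells, and known in skin for its part in atopic inflammation and scarring. It binds a receptor of the IL-13 receptor alpha 1 chain and the IL-4 receptor alpha chain, which signals through JAK kinases and STAT6. The product of Il13ra2 binds the cytokine too, with high affinity, and is generally described as a decoy. Genes commonly used as marks of the response in mouse macrophages include Arg1, Chil3 and Retnla, and in stromal and epithelial cells the eotaxins.

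With 1 array a side, no error, test or p-value belongs to the comparison itself. Each gene is therefore shown with both TGF-beta arrays, whose difference is that between 2 mice under the same treatment, and a gene that differed 2-fold or more between them is called one that varies between mice. No signal filter was set on the TGF-beta arrays for this mark. A gene dim on both can hardly reach 2-fold, so a gene without the mark is not thereby shown to be steady. Differences of TGF-beta or TSLP skin from PBS outlet skin use the same PBS array and are no independent check. In a piece of skin, a change in the number of cells of a type and a change in RNA per cell cannot be told apart.

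The arrays were alike in overall signal. Their medians ran from 160 to 171 units, and for the Actb control probe sets the 3' signal over the 5' signal was between 1.13 and 1.25. The defining skin genes were bright on both arrays and close to each other. Krt5 gave 7500 under PBS and 6448 under IL-13, Krt14 gave 8346 and 6775, Krt1 gave 3440 and 3904, and Krt10 gave 14570 and 16849. The cornified envelope gene Lor gave 10784 and 10407, and the dermal collagen genes Col1a1 and Col3a1 differed by 0.15 and 0.16. The labelled tissue was thus borne out by its markers. The Il13 probe set gave 3.36 under PBS and 8.94 under IL-13, both far below the median signal.

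IL-13 skin differed little from PBS outlet skin over most genes. The genes that differed most included hair follicle, chemokine, protease, macrophage-associated and exocrine pancreas genes and Car4. The hair follicle and exocrine pancreas genes among them vary between mice. Of the 7562 genes, 6815 (90.1%) lay within 0.5 of equality, and the median difference was -0.07. Of all 7562, 39.8% had a positive difference, and among the 5 outlet arrays IL-13 was the highest in 909 (12.0%) and the lowest in 1668. These shares are the background for the counts of each gene list. There were 85 genes (1.12%) at least 2-fold higher under IL-13 and 31 (0.41%) at least 2-fold lower. Between the TGF-beta mice, 186 of 7597 genes (2.45%) differed 2-fold or more in either direction, so the count by itself is no larger than the difference between a pair of mice given the same cytokine.

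The genes behind the counts were of different kinds. Of the 85 higher genes, 38 varied between the TGF-beta mice and 47 did not, 41 were below 165 units on the PBS array, and 62 were highest under IL-13 among the 5 outlet arrays. Of the 31 lower genes, 13 varied between the mice and IL-13 was lowest of the 5 in 11. Past 4-fold there were 21 higher genes and 1 lower. Just inside the higher threshold lay Basp1 at 1.00 and Ltbp2 at 1.01, and just outside it Ccl12 at 0.997 and Saa3 at 0.99. Of 24 further probe sets of the higher genes with enough signal, 23 had the same sign and 20 were also past 2-fold.

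**Figure D1:**
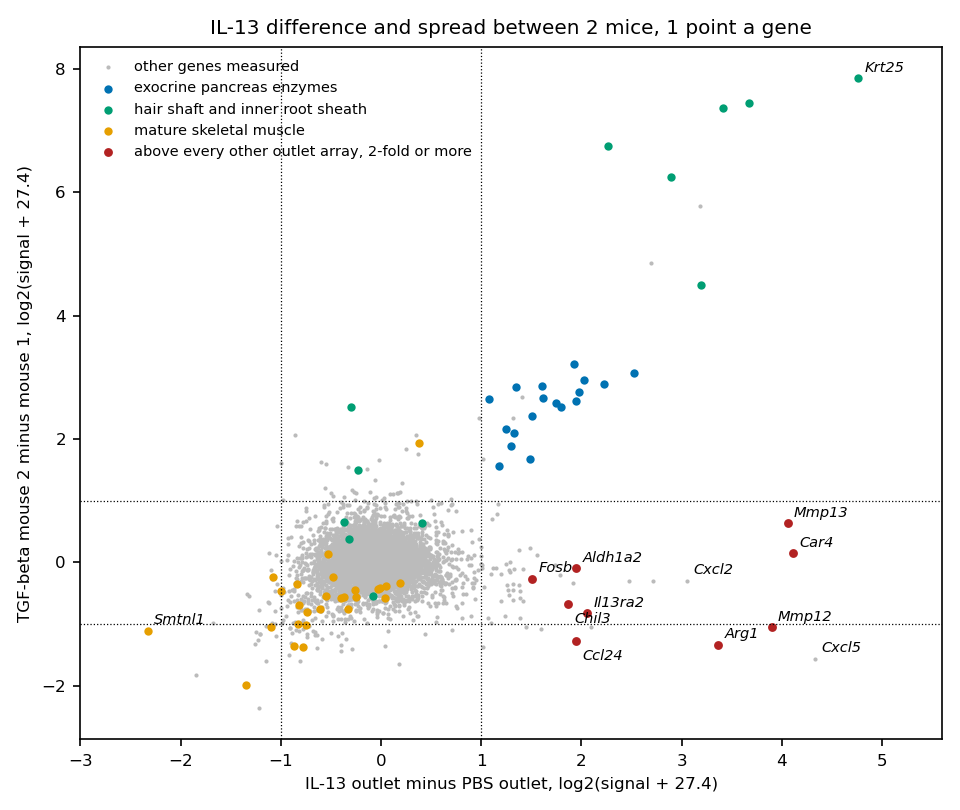
Each point is 1 of the 7562 genes, with the IL-13 minus PBS difference on the horizontal axis and the difference between the TGF-beta mice on the vertical axis, both in log2(signal + 27.4), and dotted lines at 2-fold. Most genes sit near 0 on both axes, the hair and exocrine pancreas genes lie at the upper right, where both differences are large, and Car4 and Mmp13 lie at the far right with 0.16 and 0.64 between the mice.

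When limma borrowed the spread of the TGF-beta mice for the single arrays, it called 0 of 7562 genes at an adjusted p of 0.05. The lowest adjusted p was 0.433, and before adjustment 292 genes had a p under 0.05. After quantile normalization the same limma fit called 3 genes, Car4 with an adjusted p of 0.00935, Cxcl2 with 0.04 and Cxcl1 with 0.0468. Over the settings tried, the lowest adjusted p of the limma fit lay between 0.00935 and 0.954, on 1 residual degree of freedom. On simulated data for this comparison (7562 genes), the same fit recovered 0 of 50 genes changed by 1 on the log2 scale, 0 of 50 changed by 2, 3 of 50 changed by 3 and 32 of 50 changed by 4, so a count of 0 says little about most genes.

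Against the PBS array alone, a gene can stand out because that array is low. A stricter description asks that IL-13 skin be at least 2-fold above each of the 4 other outlet arrays, and 9 of 7857 genes (0.115%) were. When all 5 arrays had to reach the filter, 2 remained, Chil3 and Arg1, since the other 7 were below 165 units on at least 1 array. The 9 were Car4, Mmp13, Chil3, Aldh1a2, Arg1, Il13ra2, Fosb, Mmp12 and Ccl24. By the same rule 0 genes lay below all 4 others. The counts for the other outlet arrays were 1 above and 6 below for PBS, 14 and 5 for TSLP, 0 and 14 for TGF-beta mouse 1, and 78 and 8 for mouse 2. Without mouse 2 the IL-13 count above became 17. The 9 genes were among these, and the other 8 included Krt25, Krt27, Krt71, Krtap15, Krtap8-1 and Tchh, which are hair follicle genes. The count below became 8, among them Smtnl1 and Igf2.

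Car4 encodes a carbonic anhydrase anchored to the outer cell membrane. It gave 68.6 units on the PBS outlet array, 62.8 on PBS distal, 1636 under IL-13, 291 under TSLP, and 152 and 172 in TGF-beta mice 1 and 2. IL-13 was 4.11 (17.3-fold) above PBS and 2.39 above the next outlet array, the largest gap of any gene, while the TGF-beta mice differed by 0.16. The other 6 measured carbonic anhydrases lay between -0.59 for Car1 and 0.70 for Car6, so the family as a whole had a median of -0.17.

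Both proteases of the group cut extracellular matrix. Mmp13, an interstitial collagenase, gave 15.8 on the PBS outlet array, 1.11 on PBS distal, 692 under IL-13, 112 under TSLP, and 87.0 and 151 in the TGF-beta mice. Its difference was 4.06, with 0.64 between the mice. Mmp12, the elastase of macrophages, gave 23.4, 61.0, 731, 324, 139 and 53.0 on the same arrays in that order, a difference of 3.90. Mmp12 differed by -1.05 between the TGF-beta mice and is one of the genes that vary between mice, yet both mice lay far below the IL-13 array. The gap to TSLP, the next outlet array, was 1.11, close in size to the difference between the mice.

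Arg1 and Chil3 are classic products of alternatively activated macrophages, the first an enzyme that breaks down arginine and the other a secreted chitinase-like protein. Arg1 gave 474 on the PBS outlet array, 942 on PBS distal, 5149 under IL-13, 1556 under TSLP, and 1880 and 730 in the TGF-beta mice. The difference was 3.37, and the mice differed by -1.33. The gap to TGF-beta mouse 1, the next outlet array, was 1.44, close in size to the difference between the mice. Chil3 gave 1125, 831, 4175, 854, 547 and 332 in the same order. Here PBS was the next highest outlet array, so the difference of 1.87 is also the gap to all others.

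Il13ra2, the decoy receptor chain, gave 91.5 on the PBS outlet array, 100.3 on PBS distal, 468 under IL-13, 182 under TSLP, and 170.0 and 84.6 in the TGF-beta mice. It was 2.06 higher under IL-13 than under PBS, with -0.82 between the mice. Ccl24, an eotaxin that attracts eosinophils, gave 98.8, 87.3, 458, 137, 211 and 71.0, a difference of 1.94 with -1.28 between the mice. For both genes the IL-13 array was the highest, with a gap to the next outlet array of 1.24 for Il13ra2 and 1.02 for Ccl24. For Ccl24 that gap is smaller than the difference between the mice.

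Aldh1a2, an enzyme that makes retinoic acid from retinaldehyde, gave 26.6 on the PBS outlet array, 105 on PBS distal, 181 under IL-13, 33.9 under TSLP, and 33.6 and 29.6 in the TGF-beta mice. All 4 other outlet arrays thus lay close together and near the offset, and the distal piece lay between them and IL-13. Fosb, a subunit of the AP-1 transcription factor, gave 48.1, 30.3, 187, 67.5, 28.9 and 19.5, a difference of 1.51.

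**Figure D2:**
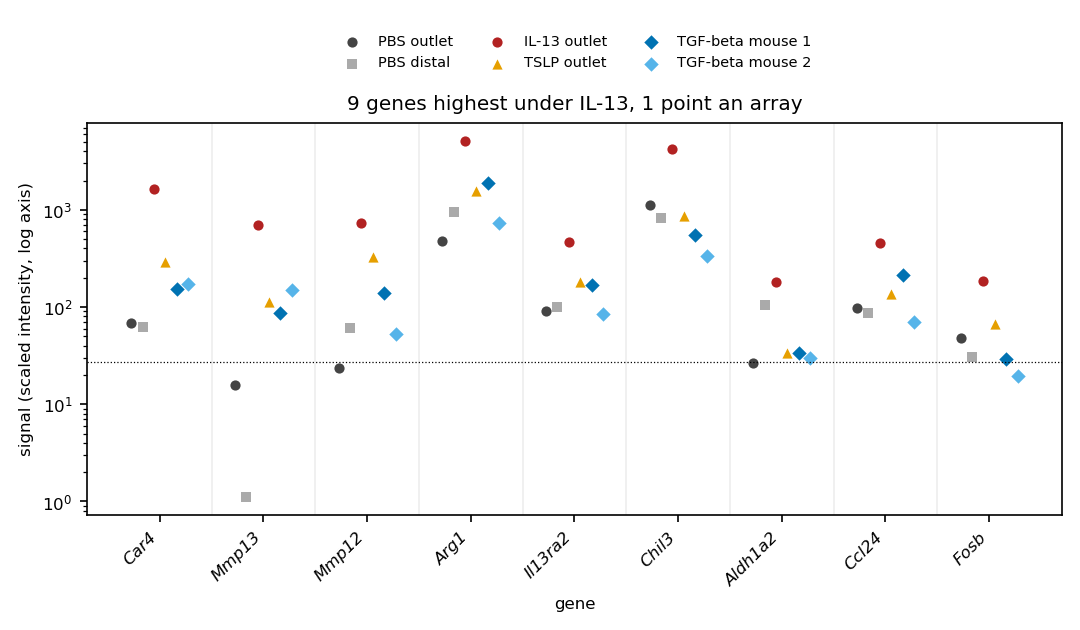
Signal of the 9 genes on each of the 6 arrays, on a log axis, with 1 point an array and a dotted line at the offset of 27.4 units. The IL-13 point is the highest for each gene, and Car4 has the widest gap to the next outlet array, 2.39 in log2(signal + 27.4).

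RefSeq promoter windows, of 250 bases before the start site and 50 after it, were in the table used here for 7 of the 9 genes. The windows were searched on both strands for a STAT6-type motif (TTCNNNNGAA), a general STAT-type motif (TTCNNNGAA), an AP-1 motif (TGANTCA) and the NF-kB motif. The AP-1 letters were in 3 of the 7, the NF-kB motif in 2, the STAT-type letters in 1 and the STAT6-type letters in 0. The 250 bases before the start site are shown for the 3 genes with the AP-1 letters and for Chil3, with the match in capitals, because these genes carry the comparison. They are from GRCm38.p6, chr9:7272264-7272513 on the plus strand for Mmp13, chr9:7347124-7347373 on the plus strand for Mmp12, chrX:147429193-147429442 on the minus strand for Il13ra2 and chr3:106167565-106167814 on the minus strand for Chil3.
Mmp13: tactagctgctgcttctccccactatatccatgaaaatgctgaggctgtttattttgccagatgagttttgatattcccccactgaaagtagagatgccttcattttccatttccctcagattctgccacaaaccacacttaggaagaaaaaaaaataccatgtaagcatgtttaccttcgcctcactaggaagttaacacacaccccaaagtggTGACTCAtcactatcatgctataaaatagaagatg
Mmp12: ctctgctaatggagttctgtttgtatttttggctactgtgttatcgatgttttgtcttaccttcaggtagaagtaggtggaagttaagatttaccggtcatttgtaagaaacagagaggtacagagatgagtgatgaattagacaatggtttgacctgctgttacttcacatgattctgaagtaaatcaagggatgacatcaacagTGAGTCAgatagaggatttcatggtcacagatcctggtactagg
Il13ra2: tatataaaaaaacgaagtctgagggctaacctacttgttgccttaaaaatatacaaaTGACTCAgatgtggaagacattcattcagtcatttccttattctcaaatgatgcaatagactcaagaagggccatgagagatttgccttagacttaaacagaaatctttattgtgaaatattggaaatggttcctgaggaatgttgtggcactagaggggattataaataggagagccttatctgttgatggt
Chil3: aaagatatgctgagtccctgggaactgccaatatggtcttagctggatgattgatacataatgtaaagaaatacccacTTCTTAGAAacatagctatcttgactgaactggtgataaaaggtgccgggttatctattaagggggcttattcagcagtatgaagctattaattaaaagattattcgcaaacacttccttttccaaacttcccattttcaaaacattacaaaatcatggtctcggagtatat
The AP-1 match begins 35 bases before the start site of Mmp13, 44 before that of Mmp12 and 193 before that of Il13ra2. The STAT-type match in Chil3 begins 172 bases before its start site.

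Over all genes with a window, the AP-1 letters were in 434 of 6152 measured genes (7.05%), in 13 of 70 genes at least 2-fold higher (18.6%) and in 4 of 24 genes at least 2-fold lower (16.7%). The NF-kB motif was in 382 of the 6152 (6.21%), in 10 of the 70 higher genes (14.3%) and in 0 of the 24 lower genes. The STAT6-type letters were in 6.68% of measured genes and 7 of the 70 higher ones. Of all 32851 promoters in the table, 6.95% held the STAT6-type letters, 8.3% the STAT-type, 7.81% AP-1 and 4.51% NF-kB. These shares describe letters in a window and are not binding sites.

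Several chemokine genes were far brighter under IL-13 than under PBS. Of the 5 measured neutrophil chemokine genes, 3 had at least a 2-fold higher signal, 0 a lower one, and all 5 were positive, with a median of 2.72 against -0.07 over all genes. Cxcl5, Cxcl2 and Cxcl1 were below the filter under PBS and were measured only through the IL-13 array, so the median rests on them. It was 0.47 when both arrays had to reach the filter and 0.63 with no filter. Their products bind CXCR2 and draw neutrophils.

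Cxcl5 gave 67.4 units on the PBS outlet array, 10.6 on PBS distal, 1883 under IL-13, 1662 under TSLP, and 1036 and 334 in the TGF-beta mice. It was 4.33 higher under IL-13 than under PBS, and PBS was the lowest of the 5 outlet arrays. Cxcl5 varies between mice, by -1.56, and without it the median of the neutrophil chemokine list was 1.66. Cxcl2 gave 102, 15.0, 1051, 879, 306 and 244, a difference of 3.05 with -0.29 between the mice. Cxcl1 gave 162, 24.5, 1219, 1272, 223 and 176, a difference of 2.72 with -0.30 between the mice. IL-13 and TSLP skin were close for all 3 genes, so none was marked off from every other outlet array. The platelet chemokine genes Pf4 and Ppbp differed by 0.61 and 0.32, and the receptor gene Cxcr2 gave 35.1 and 69.1 units, below the filter on both arrays.

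The promoters of Cxcl1 and Cxcl2, and that of Il6, held the NF-kB motif, and the 250 bases before each start site are shown with the matched letters in capitals. They are from RefSeq on GRCm38.p6, chr5:90890995-90891244 for Cxcl1, chr5:90903649-90903898 for Cxcl2 and chr5:30012864-30013113 for Il6, all on the plus strand.
Cxcl1: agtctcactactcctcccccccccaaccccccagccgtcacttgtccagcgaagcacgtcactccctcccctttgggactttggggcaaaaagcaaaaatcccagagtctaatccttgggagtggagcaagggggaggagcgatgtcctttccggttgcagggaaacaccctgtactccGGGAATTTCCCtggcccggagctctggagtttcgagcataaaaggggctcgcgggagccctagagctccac
Cxcl2: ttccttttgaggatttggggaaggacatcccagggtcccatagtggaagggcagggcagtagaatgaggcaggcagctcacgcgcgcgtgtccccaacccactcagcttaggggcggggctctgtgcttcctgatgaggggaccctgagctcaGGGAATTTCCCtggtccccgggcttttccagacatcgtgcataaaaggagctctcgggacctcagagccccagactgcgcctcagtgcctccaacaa
Il6: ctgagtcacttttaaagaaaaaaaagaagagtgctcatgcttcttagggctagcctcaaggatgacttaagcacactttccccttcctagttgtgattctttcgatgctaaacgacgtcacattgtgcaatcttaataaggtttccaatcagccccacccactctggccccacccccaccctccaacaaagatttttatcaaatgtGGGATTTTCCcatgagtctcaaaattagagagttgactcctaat
In Cxcl1 and Cxcl2 the capitals are 2 overlapping matches of the motif, which begin 71 and 97 bases before the start sites. In Il6 the match begins 44 bases before it, and the window also holds the AP-1 letters.

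All 3 measured genes of the eosinophil and Th2 chemokine list were positive, with a median of 0.95, and IL-13 was the highest of the 5 outlet arrays for each. Ccl24, described above, was below the filter under PBS and was measured only through the IL-13 array. The median was 0.72 when both arrays had to reach the filter. Ccl11, the eotaxin of fibroblasts, gave 848 on the PBS outlet array, 390 on PBS distal, 1665 under IL-13, 1131 under TSLP, and 868 and 705 in the TGF-beta mice, a difference of 0.95 with -0.29 between the mice. Ccl8 differed by 0.48. Ccl17, Ccl22 and Ccl1, made by dendritic and T cells, stayed below the filter, at 33.2 and 74.4, 66.1 and 55.8, and 43.0 and 34.3 units under PBS and IL-13.

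Each of the 10 measured CC chemokine genes of monocytes and macrophages was higher under IL-13, 3 of them at least 2-fold, with a median of 0.75. Of these 3, Ccl3 and Ccl4 were below the filter under PBS and were measured only through the IL-13 array. The median was 0.53 when both arrays had to reach the filter and 0.61 with no filter. IL-13 was the highest outlet array in 8 of the 10 (80.0%), against 12.0% of all genes. Ccl2, which draws monocytes through CCR2, gave 1188 on the PBS outlet array, 426 on PBS distal, 3007 under IL-13, 1902 under TSLP, and 854 and 548 in the TGF-beta mice. The difference was 1.32, and the TGF-beta mice lay below PBS. Its close relatives were higher too, with Ccl12 at 0.997 and Ccl7 at 0.90. Ccl3 and Ccl4, the macrophage inflammatory proteins, were 1.25 and 1.12 higher. Related chemokine genes lie side by side and resemble each other in sequence, so part of their signal may be shared.

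Among the ligands of CXCR3, Cxcl10 was 1.32 higher and Cxcl9 0.65 higher. Both were brighter still under TSLP, where Cxcl9 gave 2473 units against 332 under IL-13 and 202 under PBS. The list to which they belong had 1 of 6 measured genes at least 2-fold higher.

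**Figure D3:**
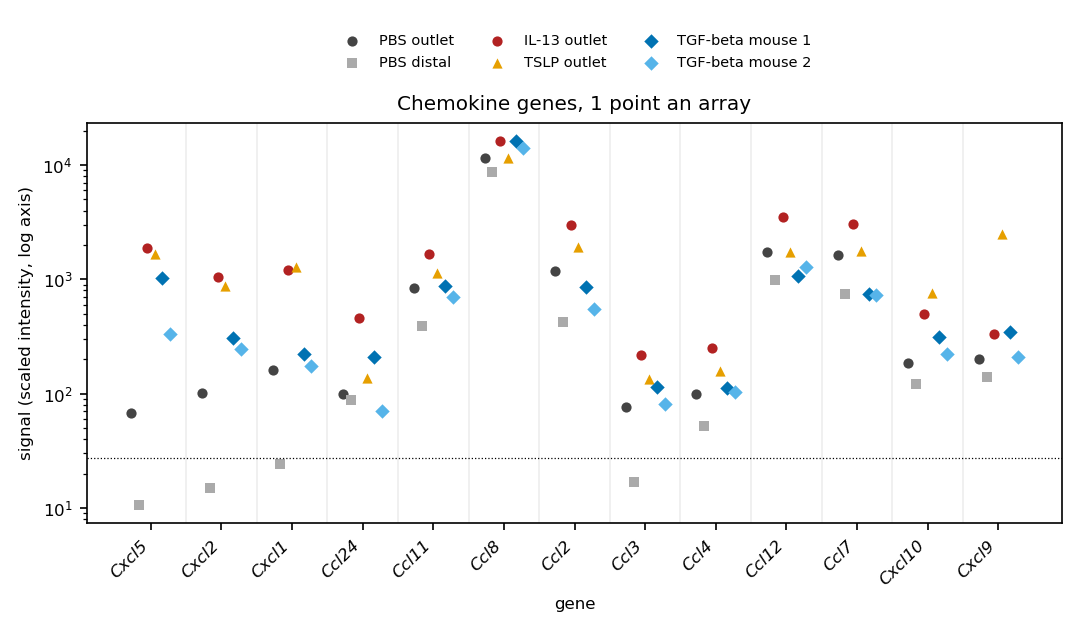
Signal of 13 chemokine genes on each of the 6 arrays, on a log axis, with 1 point an array and a dotted line at the offset of 27.4 units. IL-13 is the highest outlet array for Ccl24, Ccl11 and Ccl2, lies close to TSLP for Cxcl5, Cxcl2 and Cxcl1, and lies below TSLP for Cxcl10 and Cxcl9.

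The receptor and its signalling chain were otherwise within 2-fold. Of the 12 measured genes of the IL-4 and IL-13 receptor list, Il13ra2 alone was at least 2-fold higher and 0 were lower, and the median was -0.04. Il13ra2 was below the filter under PBS and was measured only through the IL-13 array. The median was -0.06 when both arrays had to reach the filter. Il13ra1, the signalling chain for IL-13, gave 560 units under PBS and 757 under IL-13, a difference of 0.42 with -0.29 between the TGF-beta mice. Il4ra gave 1387 and 1323, a difference of -0.07, and Stat6 gave 905 and 869, a difference of -0.06. A dimmer probe set with enough signal was lower for both, at -0.42 for Il4ra and -0.36 for Stat6. The feedback gene Socs3 was 0.59 higher, and Cish was level at -0.01. Jak1 and Jak2 differed by -0.17 and 0.20, and Tyk2, at -0.52, was the lowest of the list.

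Of the 22 measured genes of the alternative activation list, 6 (27.3%) were at least 2-fold higher and 0 were lower, against 1.12% and 0.41% of all genes, and 16 were positive with a median of 0.20. The 6 were Arg1, Ccl24, Il6, Chil3, Clec7a and Serpinb2. Ccl24 and Il6 were below the filter under PBS and were measured only through the IL-13 array. Arg1 and Ccl24 vary between mice, and without the varying genes 4 were at least 2-fold higher. The median was 0.19 when both arrays had to reach the filter. Clec7a, the beta-glucan receptor of myeloid cells, gave 346 under PBS, 972 under IL-13, 793 under TSLP, and 477 and 298 in the TGF-beta mice. Serpinb2, an inhibitor of plasminogen activators, was 1.20 higher.

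Other commonly used genes of the same response moved little. Retnla, which encodes a resistin-like protein, gave 975 on the PBS outlet array, 9075 on PBS distal, 1515 under IL-13, 2167 under TSLP, and 595 and 367 in the TGF-beta mice. Its difference from PBS was 0.62, IL-13 was not the highest outlet array, and distal skin was far above all outlet pieces. Mgl2, a lectin of macrophages and dendritic cells, was at -0.46, Tgm2 at -0.39 and Il31ra, a receptor chain for the itch cytokine IL-31, at -0.59.

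Of the 21 measured mediators of the IL-1, IL-6 and TNF list, 5 were at least 2-fold higher and 0 lower, with a median of 0.24. Of these, Il6, Acod1, Ptgs2 and Tnfaip6 were below the filter under PBS and were measured only through the IL-13 array. The median was 0.09 when both arrays had to reach the filter and 0.25 with no filter. Il6 gave 106 on the PBS outlet array, 25.9 on PBS distal, 477 under IL-13, 624 under TSLP, and 160 and 121 in the TGF-beta mice, a difference of 1.92. Il1b gave 588, 57.7, 1578, 1059, 415 and 483, a difference of 1.38 with 0.21 between the mice. IL-13 and TSLP were thus the upper pair of outlet arrays for both cytokines. Acod1, which makes itaconate in activated macrophages, was 2.47 higher, and Ptgs2, the inducible cyclooxygenase, 1.73 higher. Tnfaip6, which binds hyaluronan, was 1.38 higher. The alarmin gene Il33 differed by 0.79.

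Genes of the neutrophil list differed in both directions. Of 15 measured granule and surface genes, 6 were past 2-fold, all of them higher under IL-13, against 1.12% of all genes, and 11 were positive with a median of 0.48. Of these 6, Mmp9 was below the filter under PBS and was measured only through the IL-13 array. The median was 0.47 when both arrays had to reach the filter. S100a8, 1 chain of the calprotectin dimer, gave 2392 on the PBS outlet array, 474 on PBS distal, 6777 under IL-13, 2857 under TSLP, and 4212 and 4932 in the TGF-beta mice, a difference of 1.49. S100a9, its partner, gave 1329, 143, 3269, 2458, 2170 and 1496, a difference of 1.28. The C-type lectin genes Clec4d and Clec4e were 1.79 and 1.39 higher, and the gelatinase gene Mmp9 1.41. Several of the genes that were higher are also made by other myeloid cells or by keratinocytes. Primary granule genes, more particular to neutrophils, were dim and not higher, with Mpo at 109 and 62.8 units and Elane at 57.8 and 39.7 under PBS and IL-13. Ngp, of the secondary granules, was at -0.50. The summed signal of the neutrophil list ran from 15003 to 19734 on the 4 other outlet arrays and was 24141 under IL-13.

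Of 30 measured macrophage markers, 26 were positive with a median of 0.24, against 39.8% positive over all genes, but Cd14, the lipopolysaccharide co-receptor, was the only one past 2-fold. Cd14 gave 798 under PBS, 2027 under IL-13, 1591 under TSLP, and 857 and 669 in the TGF-beta mice, a difference of 1.32. Trem2, a receptor of lipid-handling macrophages, was 0.94 higher. The summed signal of the list was 129725 under PBS and 155139 under IL-13, and on the other outlet arrays it ran from 132874 to 151754. The part of such cells in the results on chemokines and lectins was not tested. A list of ribosomal protein genes also had 9 of 10 measured genes positive, with a median of 0.27, so a large positive share was not particular to macrophage markers. After quantile normalization the median was 0.15 for the macrophage list and 0.09 for the ribosomal list.

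Genes of other blood cells did not stand apart by the size rule. Among 7 eosinophil markers on the array, 0 reached the filter, and Siglecf gave 15.5 and 16.7 units, Epx 17.2 and 7.00, and Ccr3 1.81 and 2.14 under PBS and IL-13. Among 7 measured mast cell and basophil markers 0 were past 2-fold, with Hdc, the histamine-forming enzyme, at 0.87 and the chymase gene Mcpt4 at -0.33. Among 7 T and NK cell markers 0 were past 2-fold, with Gzma at 0.91. Of 7 B and plasma cell markers 1 was lower, the antibody gene Igha, which gave 872 under PBS, 223 under IL-13, 481 under TSLP, and 533 and 130 in the TGF-beta mice. It varies between mice, by -1.83.

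Proteases of the matrix were the next group. Of 18 measured metalloproteinase and ADAM genes, 5 (27.8%) were past 2-fold, all higher, namely Mmp13, Mmp12, Mmp9, Mmp3 and Adam8, with a median of 0.29. Mmp13, Mmp12 and Mmp9 were below the filter under PBS and were measured only through the IL-13 array. The median was 0.17 when both arrays had to reach the filter and 0.27 with no filter. Mmp9 gave 157 on the PBS outlet array, 172 on PBS distal, 463 under IL-13, 237 under TSLP, and 182 and 166 in the TGF-beta mice, and was 0.89 above every other outlet array. Adam8, a surface protease of myeloid cells, gave 402 under PBS, 992 under IL-13, 835 under TSLP, and 433 and 426 in the mice.

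Mmp3, stromelysin, gave 590 on the PBS outlet array, 435 on PBS distal, 1526 under IL-13, 2203 under TSLP, and 2431 and 2252 in the TGF-beta mice. Every other treated piece was thus brighter than IL-13 skin, and against the median of the 4 other outlet arrays Mmp3 was at -0.54. Inhibitors were higher too. Timp1 was 1.26 higher and Slpi, an inhibitor of neutrophil elastase, 0.93. Of 12 measured inhibitors and plasminogen genes 10 were positive and 2 were past 2-fold.

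Genes that build the matrix were mostly within 2-fold. Of 19 measured collagen chains, 0 were past 2-fold in either direction, and the median of 0.09 became -0.00 after quantile normalization and -0.04 with the mean of all probe sets. The highest was Col12a1 at 0.52, and the lowest were Col15a1 at -0.85 and Col7a1, the anchoring fibril collagen, at -0.72. In the crosslinking list 11 of 14 genes were positive, led by the lysyl oxidase gene Lox at 0.90, for which a dimmer probe set with enough signal gave 1.30. Plod2, the telopeptide lysyl hydroxylase, gave 442 under PBS, 681 under IL-13, 216 under TSLP, and 243 and 399 in the mice. Fibronectin, Fn1, was 0.81 higher, and a dimmer probe set of it gave 111 under PBS and 467 under IL-13, a difference of 1.84, so its probe sets disagree on 2-fold. Of 26 glycoprotein genes 0 were past 2-fold by the probe set that stood for the gene. Of 19 TGF-beta genes only Ltbp2 was, at 1.01, and Tgfb1 itself gave 145 and 155 units, below the filter. Has1, a hyaluronan synthase, was 0.91 higher and the hyaluronan receptor gene Lyve1 was at -0.89.

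**Figure D4:**
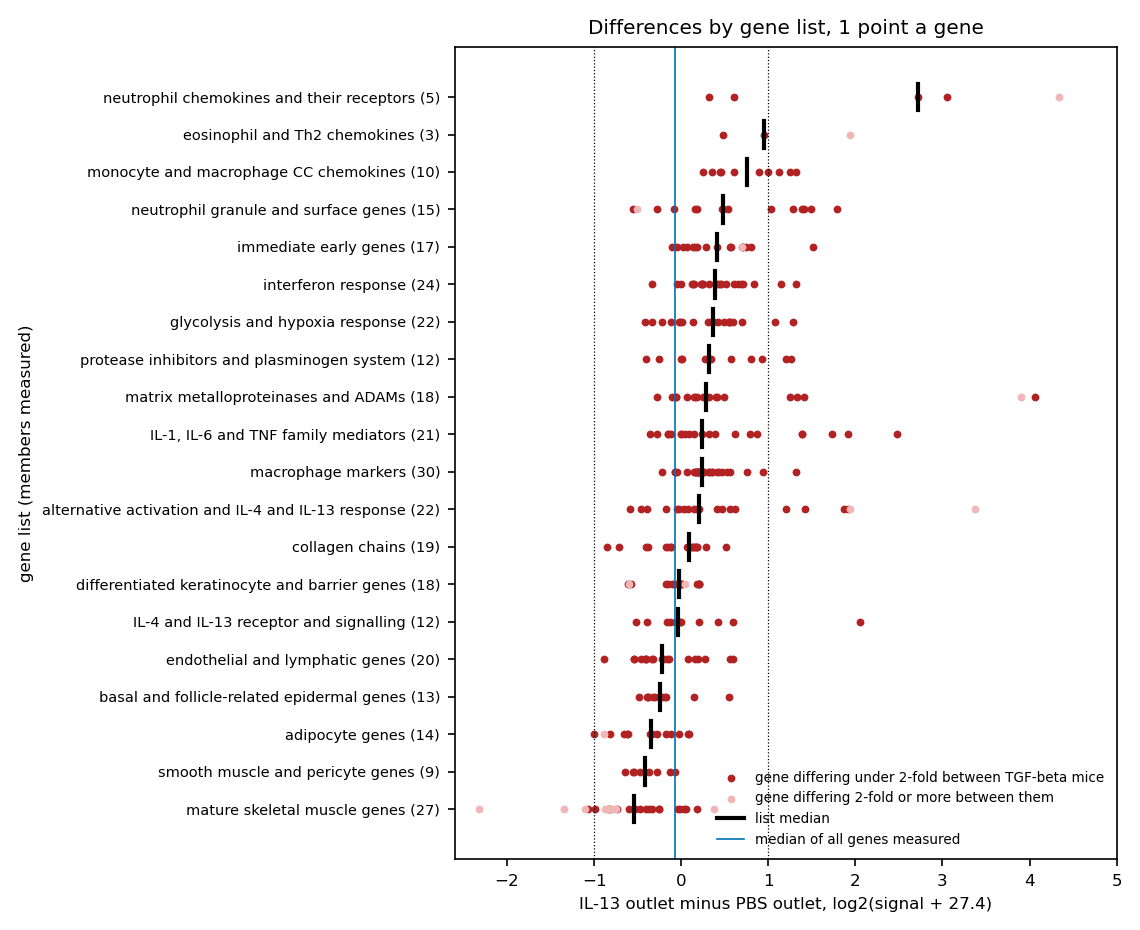
Each point is a measured gene of 1 of 20 lists, by its IL-13 minus PBS difference in log2(signal + 27.4). Black bars are list medians, the blue line is the median of all genes at -0.07, dotted lines mark 2-fold, and pale points vary between the TGF-beta mice. Of the lists drawn, the neutrophil chemokine list has the highest median, 2.72, which is 0.47 with both arrays above the filter, and the mature muscle list the lowest, -0.55.

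Of 22 measured genes of the glycolysis and hypoxia list 16 were positive with a median of 0.36, 2 were past 2-fold (Slc2a1 and Adm), and IL-13 was the highest outlet array in 11. Adm was below the filter under PBS and was measured only through the IL-13 array. The median was 0.35 when both arrays had to reach the filter. Slc2a1, the basal glucose transporter, gave 721 on the PBS outlet array, 1021 on PBS distal, 1790 under IL-13, 1003 under TSLP, and 1149 and 1053 in the TGF-beta mice. Its difference was 1.28, with -0.12 between the mice. Hilpda, a lipid droplet protein induced by low oxygen that is not in the list, gave 149, 153, 404, 203, 250.01 and 222, a difference of 1.29. Adm, which encodes a vessel-dilating peptide, was 1.07 higher and Vegfa 0.59. The glycolytic enzyme gene Aldoa, at -0.42, was the lowest of the list.

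Pgf, a growth factor of the VEGF family, gave 48.7 on the PBS outlet array, 53.3 on PBS distal, 196 under IL-13, 97.2 under TSLP, and 89.7 and 101 in the TGF-beta mice. It was 1.55 higher than under PBS and 0.81 above every other outlet array. Igf2 went the other way, at 858 under PBS, 372 under IL-13, 801 under TSLP, and 1276 and 612 in the mice. IL-13 was the lowest outlet array for Igf2, but distal skin, at 136 units, was lower still. Over the 14 measured growth factor genes the median was -0.13.

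Of 17 measured immediate early genes, 15 were positive with a median of 0.41, and IL-13 was the highest outlet array in 10 (58.8%). Apart from Fosb none was past 2-fold. Fosb was below the filter under PBS and was measured only through the IL-13 array. The median was 0.35 when both arrays had to reach the filter. Fos differed by 0.81, Ier3 by 0.74, Nr4a1 by 0.72 and Egr1 by 0.70, and Egr1 varies between the mice by 1.03.

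Of 24 measured interferon-response genes, 21 were positive with a median of 0.39, and 2 were past 2-fold, Cxcl10 and Ifit2. Ifit2 gave 323 under PBS, 748 under IL-13, 817 under TSLP, and 548 and 515 in the TGF-beta mice, a difference of 1.14. IL-13 was the highest outlet array in 2 of the 24 (8.33%), close to the 12.0% of all genes. Rsad2, an antiviral enzyme, was 0.84 higher, and Irf1 was level at -0.00.

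The epidermis was close to level. Of 18 measured barrier genes 0 were past 2-fold and the median was -0.02, with the envelope gene Ivl at -0.58 and Flg at 0.21. Among 13 basal and follicle-related genes 11 were negative, with a median of -0.24 and 0 past 2-fold. In the stress-induced list, S100a8 and S100a9 were higher, whereas Krt6a, a keratin of wounded epidermis, gave 1852 under PBS and 1018 under IL-13, a difference of -0.85.

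Fat, vessel and contractile genes had medians below that of all genes. Of 14 measured adipocyte genes 2 were positive, against 39.8% of all genes, and the median was -0.35. IL-13 was the lowest outlet array in 8, against 1668 of the 7562. Cidec, a lipid droplet protein, gave 509 on the PBS outlet array, 709 on PBS distal, 240.4 under IL-13, 631 under TSLP, and 545 and 315 in the TGF-beta mice, a difference that only just reached 2-fold. The insulin-responsive glucose transporter gene Slc2a4 was at -0.89 and Plin4 at -0.82, while Fabp4 and Adipoq were at 0.09 and -0.34. Of 20 endothelial genes 0 were past 2-fold, with a median of -0.22, and of 9 smooth muscle genes all were negative, with a median of -0.41.

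Skeletal muscle lies under mouse skin as a thin sheet. Of the 31 lower genes, 4 were in the mature muscle list and 19 in no list. That list does not hold every muscle gene, so the count of 4 understates them. Lower genes outside it included the muscle genes Myom2 (-1.25), Ckmt2 (-1.23) and Hrc (-1.12), of which Myom2 and Ckmt2 vary between mice. Of 27 measured mature muscle genes 4 (Smtnl1, Apobec2, Casq1 and Pygm) were at least 2-fold lower, 0 were higher, and the median was -0.55. Smtnl1, a regulator of muscle contraction, gave 1103 on the PBS outlet array, 441 on PBS distal, 198 under IL-13, 1086 under TSLP, and 593 and 261 in the TGF-beta mice. It had the most negative difference of all genes, -2.33, and varies between the mice by -1.11. Apobec2 gave 4807, 6397, 1878, 6701, 4323 and 1075, so mouse 2 lay below IL-13.

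In 8 of the 27 muscle genes the TGF-beta mice differed 2-fold or more, and the list's median against PBS was -0.10 in mouse 1 and -0.65 in mouse 2. Without those 8 genes the IL-13 median was -0.40. The sarcomere genes Acta1 and Myh1 were at 0.19 and -0.01. The summed signal was 205256 under PBS, 163347 under IL-13 and 146498 in mouse 2. How much muscle each piece held was not measured, and its part in these values was not tested. The mitochondrial genes Cox7a1 and Cox8b, of muscle-type isoforms, were at -0.83 and -0.79, and over the 24 respiratory chain genes the median was -0.14.

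Regenerating muscle and muscle stress genes had a summed signal of 30506 at the PBS outlet, 5441 in distal skin and 23522 under IL-13. Of 14 measured, 3 were positive and the median was -0.34. Ankrd2, a stretch-responsive muscle protein, gave 4160 on the PBS outlet array, 229.8 on PBS distal, 1979.7 under IL-13, 1582 under TSLP, and 3007 and 1492 in the TGF-beta mice. PBS was the highest of the 5 outlet arrays, and IL-13 lay in the middle.

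Among the lower genes outside the muscle lists, Fkbp5 and Pdk4 were lowest under IL-13 of the 5 outlet arrays. Being outside those lists does not mean that muscle does not make them. Fkbp5, a co-chaperone of the glucocorticoid receptor, gave 1409 on the PBS outlet array, 1563 on PBS distal, 633 under IL-13, 1202 under TSLP, and 1053 and 1175 in the TGF-beta mice. Its difference was -1.12, the mice differed by 0.15, and the gap to the next lowest outlet array was -0.71. Pdk4, which spares glucose in fasting, gave 1088, 1726, 415, 825, 880 and 611, a difference of -1.33 with -0.51 between the mice.

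The glucocorticoid list as a whole was level, with 13 measured genes, 1 at least 2-fold lower and a median of -0.01, and Tsc22d3 and Per1 were at -0.27 and -0.30. The widest gap below all other outlet arrays was that of Sult1a1, a sulfotransferase, at -0.83, on signals of 767 under PBS, 420.1 under IL-13, 1072 under TSLP, and 784 and 788 in the mice. Against all 4 others, 9 genes were lower by at least 1.5-fold and 21 higher. Pon1, a lipid-bound esterase, was at -1.68, but mouse 1 and mouse 2 were also at least 2-fold below PBS, at 92.4 and 33.3 units against 52.9 under IL-13 and 230 under PBS.

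Enzymes of the exocrine pancreas were the list with most members among the higher genes and all varied between mice. All 18 measured genes were at least 2-fold higher under IL-13 than under PBS, with a median of 1.61 and values up to 2.53 for Zg16, a lectin of secretory granules. Of these, Zg16, Klk1, Cel and Pnliprp2 were below the filter under PBS and were measured only through the IL-13 array. The median was 1.56 when both arrays had to reach the filter and 1.49 with no filter. All 18 also differed 2-fold or more between the TGF-beta mice, whose medians against PBS were -1.35 and 1.23. The elastase gene Cela3b gave 634 on the PBS outlet array, 154 on PBS distal, 3069 under IL-13, 2059.8 under TSLP, and 225 and 1837 in the mice. The summed signal was 7862 under PBS, 26344 under IL-13, 21607 under TSLP, and 3142 and 18850 in the mice. The arrays thus fell into a brighter set of IL-13, TSLP and mouse 2 and a dimmer set of PBS, mouse 1 and distal skin. The source of these transcripts was not tested. These 18 genes make up 18 of the 85 higher genes.

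Hair follicle genes also differed widely between the mice. Krt25, a keratin of the inner root sheath, had the largest difference of all genes, 4.76, from signals of 12.3 on the PBS outlet array, 441 on PBS distal, 1049 under IL-13, 30.8 under TSLP, and 29.8 and 13132 in the TGF-beta mice. The mice differed by 7.85, more than IL-13 and PBS did. Krtap8-1, Krt27, Krtap15, Tchh and Krt71 had differences from 2.27 to 3.68 and from 4.49 to 7.44 between the mice. The pigment gene Tyrp1 was 1.41 higher and differed by 2.68 between the mice.

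**Figure D5:**
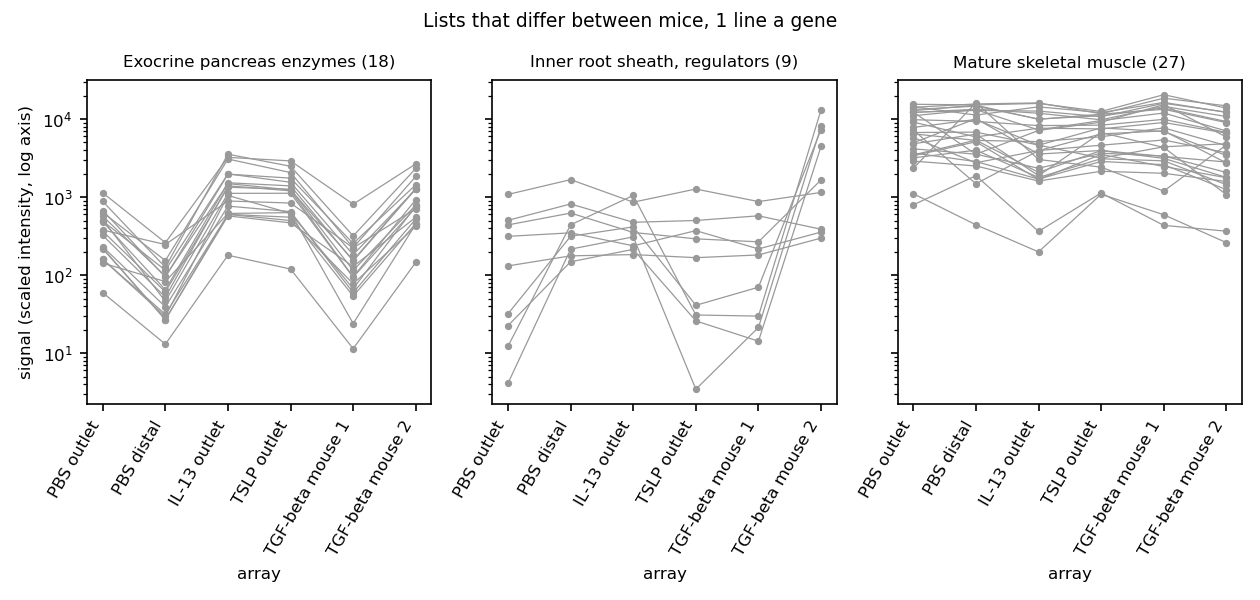
Signal on a log axis for the measured genes of 3 lists that differ between mice, with 1 line a gene and the 6 arrays side by side in no order. Exocrine pancreas genes are bright under IL-13, under TSLP and in TGF-beta mouse 2, inner root sheath keratins are brightest in mouse 2, and several mature muscle genes are dimmer under IL-13 and in mouse 2.

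Without the genes that vary between the TGF-beta mice, 47 genes remained higher and 18 lower. Of the 9 genes above every other outlet array, 6 remained (Car4, Mmp13, Chil3, Aldh1a2, Il13ra2 and Fosb), while Arg1, Mmp12 and Ccl24 are genes that vary. Aldh1a2 (33.6 and 29.6 units) and Fosb (28.9 and 19.5) lay near the offset in the TGF-beta mice. Mmp13 (87.0 and 151) was below the filter in both. That Aldh1a2 and Fosb remained thus says little about their spread between mice. Of the 85 higher genes, 7 were also at least 2-fold above PBS in both TGF-beta mice, among them Cxcl5, Cxcl2, Mmp13, Mmp3 and Clec4d. For these the difference from PBS was shared with another cytokine, over the same PBS array.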

How the data were processed

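The deposited table gives a linear intensity for every probe set on every array. MAS5 is the tool named, per the submitters' processing notes. Its version and any genome build are not given in the sources used here. Detection calls were not used. The deposited table holds 22690 probe sets, of which 64 are controls, 20380 name 1 gene, 691 name several and 1555 are unnamed here. RefSeq (GRCm38.p6) gave the current symbols of 20351 and the promoter windows. 0 per-sample columns were left unused.

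Arrays were brought to a common trimmed mean (2% left out at each end), which hardly moved the values, since the trimmed means ran from 500.16 to 500.2. The offset of 27.4 is the 25th percentile and the filter of 165 the median of all scaled values. A gene with several probe sets was read from the one brightest on average (log2, all 6 arrays). Python 3.11.15, numpy 2.4.6, pandas 2.3.3 and matplotlib 3.10.9 were used. The limma fit (limma 3.58.1, R 4.3.3, lmFit and eBayes with an intensity trend, Benjamini-Hochberg adjustment) took all 6 arrays in 5 groups, with the spread from the TGF-beta pair, and was tested on simulated data. Precision is limited by the number of arrays.

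Genes named are the 30 highest and 20 lowest differences, the 4 largest of each of 52 lists, all of the neutrophil chemokine, eosinophil chemokine and receptor lists, the 20 largest gaps above and 10 below the other outlet arrays, and checks. Other genes named (such as Retnla, Il1b, Clec7a and Adam8) were chosen after their values were seen. The members and lists were chosen with earlier results of these data known. Alternatives changed the offset, the filter, the normalization, the probe set rule, the control array and the TGF-beta mouse set beside IL-13.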

Additional observations from a re-analysis of the deposited data

How the results depend on the processing

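Leaving the arrays unscaled changed none of these counts. Quantile normalization kept 84 of the 85 higher genes and 24 of the 31 lower, PBS distal as control kept 69 and 17, and the median of the other outlet arrays kept 45 and 10, with 70 higher in all. The higher count of 85 became 131 with no filter on dim genes, 44 with both arrays above the filter, 47 without genes that vary between the TGF-beta mice and 352 against PBS distal. The lower count of 31 became 16 with an offset of 100, 18 without the varying genes, 217 against PBS distal and 12 against the median of the other outlet arrays. Of the 9 genes above every other outlet array, 2 remained when each of the 5 arrays had to reach the filter. Leaving out a TGF-beta mouse gave 9 to 17 above and 0 to 8 below, and an offset of 10 gave 1 below. limma called 3 genes after quantile normalization and 9 against PBS distal. Against PBS distal the sign turned for 46 of the 252 named genes and 10 of 51 list medians, and for 1 of the 85 higher and 7 of the 31 lower genes. Of named genes past 2-fold these were Ankrd2 (2.96), Asb12 (0.22), Atp1b4 (1.87), Gm13889 (0.88), Igf2 (1.29) and Igha (0.72), and the regenerating muscle median became 2.15. Against the median of the other outlet arrays it turned for 20 named genes, 7 list medians, 2 higher genes and 1 lower gene, among named genes past 2-fold for Crp (0.21) and Mmp3 (-0.54). The inner root sheath median was -0.31 with both arrays above the filter. The cause was not tested. PBS distal is another body site. No paired analysis was possible because the IL-13 and PBS groups have 1 array each. Signals near the offset have little order, which limits fold changes of dim genes.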
